A study of Mus musculus with 6 samples.

Results

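The genes described here are 34 antiviral interferon-stimulated genes, listed by name and followed across 6 arrays of mouse macrophage RNA. A gene was taken if it had a probe set that listed no other gene. Where it had several, the one with the highest average over all 6 arrays was used. This left 32 of the 34 genes, out of 18193 genes with such a probe set, and 57 probe sets of their own out of 45037. Ifi44 had none, and the 1 probe set of Isg15 also lists Gm9706, so its values are given apart and counted nowhere. All 32 genes passed the filter on low values in both fits below, and 31 were above the detection floor on all 6 arrays. The exception was Mx2, which was under the floor with medium.

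Each array held the RNA of 1 sample, measured as MAS5 probe set intensities. A wild-type pair had 1 sample given medium and 1 given lipopolysaccharide (LPS, a component of the outer membrane of Gram-negative bacteria that is sensed through Tlr4), and the series text uses it to define LPS-inducible genes. The other 4 samples were macrophages of a Trib1 line, all given LPS, with 2 wild-type samples and 2 labelled Trib1 knockout, each numbered 1 and 2 (Trib1 is a pseudokinase through which a ubiquitin ligase reaches C/EBP factors). No Trib1-line sample was given medium. The source of the macrophages, strain, sex, age, LPS dose, time and the design of the Trib1 allele are not given in the sources used here, nor is it said whether samples came from separate animals or cultures. The spread behind each p-value is that between these samples, and it may be technical.

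Type I interferons bind the receptor made of Ifnar1 and Ifnar2, and the kinases Jak1 and Tyk2 then phosphorylate Stat2. Stat2 and Irf9 are subunits of the complex ISGF3, which binds the interferon-stimulated response element in the promoters of antiviral genes. Macrophages make interferon beta after Tlr4 signals through the adaptors Ticam2 and Ticam1 and the factor Irf3, so LPS is a known inducer of these genes.

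The promoters are shown first because these genes are known for the response element, which was searched for here. Promoter sequences came from RefSeq on the build GRCm38.p6, each of 300 bases, with 250 before the annotated start and 50 from it on. The table held 23 of the 32 genes, with 30 promoters, and not Mx1, Mx2, Usp18, Oas2, Dhx58, Zbp1, Parp9, Parp14 and Rtp4. The core searched for was GAAANNGAAA or its reverse complement TTTCNNTTTC, on both strands. It was found in 12 of the 23 genes (52.2%), beside 3.99% of the 27025 genes in the table. By promoter it was found in 12 of 30, beside 3.44% of all. In 7 genes a whole core lay before the start, and these are printed below in the direction of the gene with the cores in capitals. Ifit1 and Ifit3 carried 2 separate cores and Rsad2, Stat2 and Oas3 carried 1, while the cores of Oas1a and Bst2 overlapped each other.

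Ifit1, chr19:34640765-34640833, plus strand: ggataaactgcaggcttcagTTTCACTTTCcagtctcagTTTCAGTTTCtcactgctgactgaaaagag
Ifit3, chr19:34583353-34583436, plus strand: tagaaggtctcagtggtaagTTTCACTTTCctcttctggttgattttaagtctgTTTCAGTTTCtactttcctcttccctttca
Rsad2, chr12:26456543-26456592, minus strand: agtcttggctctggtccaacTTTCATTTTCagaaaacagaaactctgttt
Stat2, chr10:128270256-128270305, plus strand: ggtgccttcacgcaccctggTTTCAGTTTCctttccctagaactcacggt
Oas1a, chr5:120907526-120907565, minus strand: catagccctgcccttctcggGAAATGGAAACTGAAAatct
Oas3, chr5:120777705-120777754, minus strand: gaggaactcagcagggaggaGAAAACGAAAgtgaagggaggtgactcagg
Bst2, chr8:71537567-71537622, minus strand: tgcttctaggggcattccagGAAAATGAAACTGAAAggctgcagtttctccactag

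The core lay at or after the start in the other 5 genes, Ddx58, Eif2ak2, Ifih1, Ifitm3 and Trim21. The gamma-activated site, an element known from genes induced by interferon gamma, was searched for as TTCNNNGAA, which reads the same on both strands. It was found in 9 of the 23 genes (39.1%), beside 9.55% of all genes, and by promoter in 9 of 30, beside 8.30% of all. Both motifs were present in 4 genes, namely Bst2, Eif2ak2, Ifitm3 and Oas1a, and neither was present in 6. A match describes the letters in these windows and shows no binding.

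**Figure D1:**
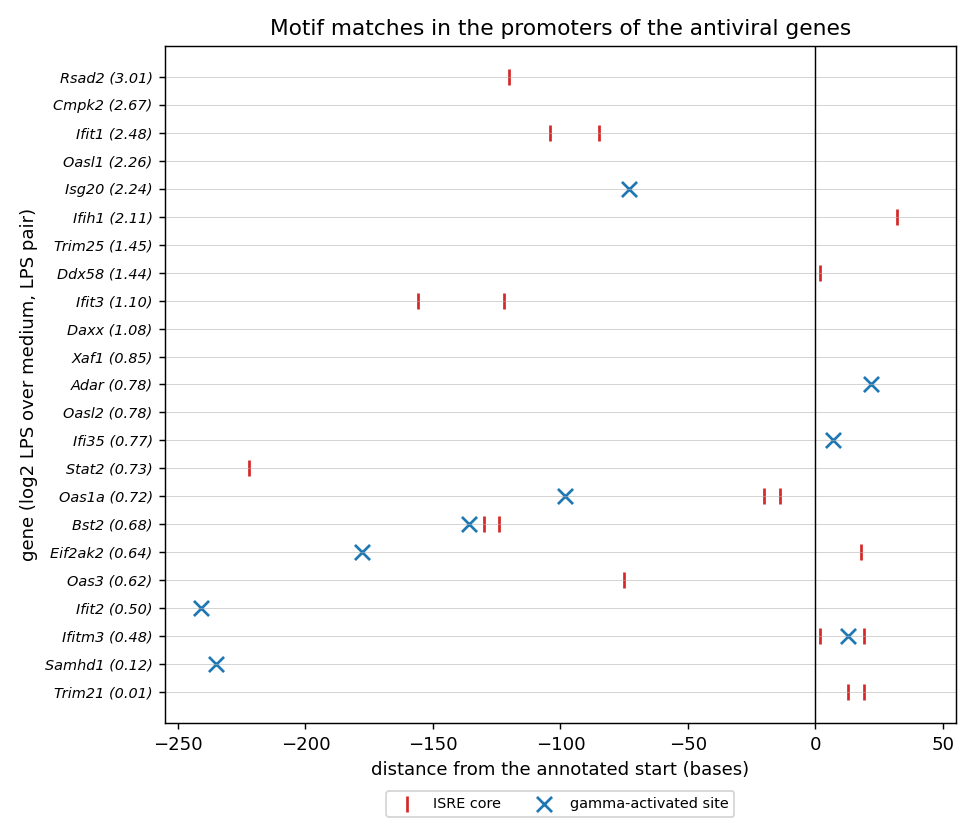
Positions of the response element core (red bars) and the gamma-activated site (blue crosses) in the promoters of the 23 genes with an entry, by distance in bases of the motif's first base from the annotated start (black line). Genes are ordered by their log2 ratio of LPS over medium in the wild-type pair, given in brackets, and matches lie along the whole order, from Rsad2 (3.01) to Trim21 (0.01).

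The arrays were brought to 1 scale (a mean of 233.9 without the lowest and highest 2%), and values under the pooled 40th percentile, 29.9, were set to it as a detection floor. The share of probe sets over the floor was 57.9% to 63.0% by array. Of the macrophage markers, 11 of 11 were above the floor on all 6 arrays, and their summed intensity was 77920 to 95184. The Trib1 probe sets do not check the genotype labels. The first read 383.5 with medium and 189 with LPS in the pair, 17.9 and 17.5 in wild type 1 and 2, and 88.1 and 20.9 in the samples labelled knockout, which are therefore called knockout-labelled. Xist read 1616 and 980.5 in the pair and 2.0 to 5.6 in the Trib1 line, and the Y-linked gene Eif2s3y 0.3 and 4.7 in the pair and 219 to 534 in the line. So the pair and the line also differ in sex-linked RNA, whose part in any comparison between them was not tested.

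In the wild-type pair, all 32 genes were higher with LPS than with medium, though Samhd1 was lower under quantile normalization and with the mean of its probe sets. Of all probe sets over the floor in at least 1 of the pair, 43.6% were. The median log2 ratio was 0.82 over the 32 genes, from 0.01 to 3.39, and -0.09 over all probe sets. At least 4-fold higher were 9 genes (28.1%): Mx1, Mx2, Rsad2, Cmpk2, Ifit1, Isg20, Usp18, Oasl1 and Ifih1. The same rule was met by 0.986% of all probe sets and by 1.21% of genes at 1 probe set each. With 1 array per condition these ratios have no replicate check and no test. On bulk RNA, fewer cells of a type and less RNA per cell cannot be told apart.

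The Mx genes encode dynamin-like GTPases that block virus replication, Mx1 in the nucleus and Mx2 in the cytoplasm. Mx1 read 609 with medium and 4981 with LPS in the pair, 3131 and 6696 in wild type 1 and 2, and 749 and 3658 in knockout-labelled 1 and 2. Its ratio in the pair was 8.18-fold. Mx2 read 12.0 with medium, which is under the floor, and 312 with LPS, so it was at least 10.5-fold higher. In the Trib1 line Mx2 read 225 and 933 in wild type and 161 and 677 in the knockout-labelled samples. Medium was the lowest of the 6 arrays for both genes, and wild type 2 the highest.

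Rsad2 (viperin) makes a chain-terminating nucleotide from CTP, and Cmpk2, a mitochondrial nucleotide kinase, can supply that substrate. The genes lie next to each other on chromosome 12, with 0 protein-coding genes between them in RefSeq. Rsad2 read 1835 with medium and 14774 with LPS in the pair, 14409.9 and 21376 in wild type 1 and 2, and 6225 and 17933 in knockout-labelled 1 and 2. Cmpk2 read 534, 3393, 3120.4, 7977, 1011 and 5767 in the same order. The ratios in the pair were 8.05-fold and 6.35-fold. In both genes knockout-labelled 1 lay nearest to medium of the 5 LPS arrays.

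The Ifit genes encode tetratricopeptide proteins that bind viral RNA with foreign 5′ ends, and the mouse genes lie close together on chromosome 19. Ifit1 read 1067 with medium and 5972 with LPS in the pair, 4685 and 10953 in wild type 1 and 2, and 2495 and 9069 in knockout-labelled 1 and 2, a ratio of 5.60-fold in the pair. Ifit3 was 2.14-fold higher in the pair, at 521 and 1114. Its other LPS arrays read 1020.4, 4042, 413 and 2437, so that wild type 2 was far above the array of the pair. Ifit2 was only 1.41-fold higher in the pair, at 6183 and 8723, although no protein-coding gene lies between Ifit2 and Ifit3.

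Usp18 removes the ubiquitin-like modifier ISG15 from proteins and dampens the type I interferon receptor. It read 1107 with medium and 6656 with LPS in the pair, 6605 and 10432 in wild type 1 and 2, and 2608 and 8375 in knockout-labelled 1 and 2, a ratio of 6.01-fold in the pair. The shared probe set of Isg15 and Gm9706 read 1779 and 8333 in the pair, 7171.5 and 12416 in wild type, and 3354 and 9296 in the knockout-labelled samples. Isg20, an exonuclease that degrades RNA, read 253 with medium, 1192 with LPS in the pair, 502 and 1702 in wild type, and 269.8 and 1148 in the knockout-labelled samples. In the pair Isg20 was 4.71-fold higher. Knockout-labelled 1 was close to medium for Isg20 and well above it for Usp18.

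The 2′-5′ oligoadenylate synthetases sense double-stranded RNA and make the activator of RNase L, and their Oasl relatives have ubiquitin-like domains. Oasl1 read 2672 with medium and 12823 with LPS in the pair, 8773 and 14026 in wild type 1 and 2, and 4054 and 10897 in knockout-labelled 1 and 2. It was 4.80-fold higher in the pair, while its neighbour Oasl2 was 1.72-fold higher. The other members had ratios of 1.64-fold (Oas1a), 1.86-fold (Oas2) and 1.53-fold (Oas3). These 3 genes were under medium in wild type 1, at 0.911, 0.699 and 0.865 of it, so the direction seen in the pair was not seen on that array.

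The cytoplasmic RNA helicases signal through Mavs, with Ddx58 (RIG-I) and Ifih1 (MDA5) as sensors and Dhx58 (LGP2) as their regulator. Ifih1 read 2289 with medium and 9891 with LPS in the pair, 6525 and 14945 in wild type 1 and 2, and 3820.3 and 10423 in knockout-labelled 1 and 2. The ratios in the pair were 4.32-fold for Ifih1, 2.70-fold for Ddx58 and 1.41-fold for Dhx58. Ddx58 ran from 634 with medium to 3021 in wild type 2. Another Ddx58 probe set, between 55.6 and 78.0 on all arrays, was 1.12-fold higher in the pair.

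The remaining 15 genes were between 1.01-fold and 2.73-fold higher in the pair. Among the effectors and sensors, Eif2ak2 (PKR), which halts translation on double-stranded RNA, was 1.56-fold higher. Adar, which edits adenosine in such RNA, was 1.72-fold higher, and Zbp1, a sensor of Z-form nucleic acid, 1.34-fold. Stat2, a subunit of ISGF3, was 1.66-fold higher, from 1224 to 2033. The ubiquitin ligase Trim25, which acts on the RIG-I pathway, was 2.73-fold higher and the antibody receptor Trim21 1.01-fold. Parp14, Daxx, Xaf1, Ifi35, Rtp4 and Parp9 were 2.15-fold, 2.11-fold, 1.80-fold, 1.70-fold, 1.55-fold and 1.37-fold higher.

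The restriction factors Bst2, Ifitm3 and Samhd1 had small ratios in the pair, unlike the Mx genes. Bst2 (tetherin), which holds budding virus at the membrane, was 1.60-fold higher and Ifitm3, which blocks virus entry at endosomes, 1.40-fold. Samhd1, which depletes the nucleotides that reverse transcription needs, read 17939.5 with medium and 19438 with LPS, a ratio of 1.08-fold. Its 4 other probe sets were lower with LPS, at log2 ratios of -0.10 to -0.50, so the direction depends on the probe set.

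The genes with the smallest ratios in the pair were thus Trim21, Samhd1 and Zbp1. Trim21 read 1182 with medium, 1192 with LPS, 1266 and 1072 in wild type and 1029 and 1445 in the knockout-labelled samples. Zbp1 read 4168 and 5597 in the pair, 5254 and 5897 in wild type and 4416 and 5316 in the knockout-labelled samples. The 6 arrays of Trim21 spanned a narrow range with medium inside it, while medium was the lowest array for this probe set of Zbp1. The other probe set of Zbp1 read 2523 with medium and 2698 with LPS in the pair, 1848 and 3277 in wild type and 1483 and 2474 in the knockout-labelled samples, so medium was not lowest there.

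Genes with and without the motifs overlapped in their ratios. In the 12 genes with a response element core the median log2 ratio was 0.72, from 0.01 to 3.01, and in the 11 without it 0.85, from 0.12 to 2.67. At least 4-fold higher were 3 genes of each set. With and without a gamma-activated site the medians were 0.68 (9 genes) and 1.27 (14 genes). These values are a description of the genes with an entry in the promoter table, and no test was made.

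**Figure D2:**
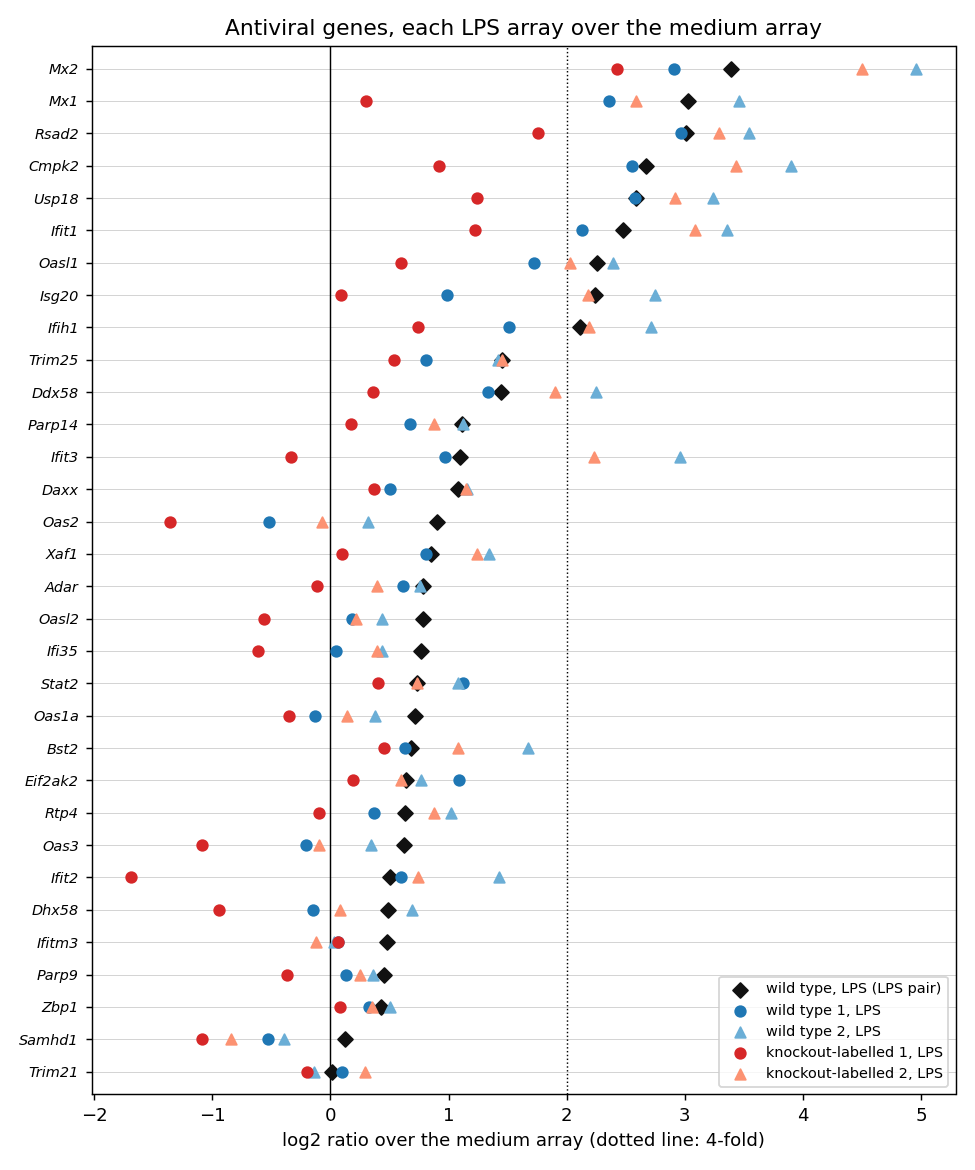
Log2 ratio over the medium array of each of the 32 genes on each LPS array (black diamonds, the wild-type pair; blue, wild type 1 and 2 of the Trib1 line; red and orange, knockout-labelled 1 and 2), ordered by the pair, with a dotted line at 4-fold. Diamonds run from 0.01 for Trim21 to 3.39 for Mx2, and knockout-labelled 1 is the leftmost symbol for 31 genes.

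Each of the other LPS arrays was set against the same medium array, so the counts that follow share it. Above medium were 27 genes in wild type 1, 30 in wild type 2, 19 in knockout-labelled 1 and 28 in knockout-labelled 2, beside 49.2%, 54.6%, 49.3% and 53.8% of all probe sets. The median log2 ratios were 0.65, 1.14, 0.10 and 0.88, beside -0.01, 0.08, -0.01 and 0.06 over all probe sets. At least 4-fold above medium were 6, 11, 1 and 10 genes, beside 1.01%, 1.44%, 1.19% and 1.33% of all probe sets. The 1 gene in knockout-labelled 1 was Mx2. Samhd1 was under medium on all 4 Trib1-line arrays, at 0.693, 0.764, 0.470 and 0.560 of it.

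All 3 wild-type LPS arrays were at least 4-fold above medium for 6 of the 32 genes (18.8%), beside 0.386% of the 33134 probe sets above the floor on any of the 4 arrays. These were Mx1, Mx2, Rsad2, Cmpk2, Ifit1 and Usp18. Isg20, Oasl1 and Ifih1 fell short in wild type 1, at 1.99-fold, 3.28-fold and 2.85-fold, and passed in wild type 2, at 6.73-fold, 5.25-fold and 6.53-fold.

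A fit of the 3 wild-type LPS arrays against the medium array asked which of these differences exceed the spread between LPS arrays, and it takes the single medium sample to vary as the LPS arrays do. Rsad2 rose, by a log2 difference of 3.17 (SE 0.35, adjusted p = 0.0313 with limma and Benjamini-Hochberg adjustment over 28430 probe sets). It was the 1 gene of 32 (3.12%) past the adjusted threshold of 0.05, which 0.158% of all probe sets passed in that direction. Under 5 of the alternative settings the call of Rsad2 was lost, with adjusted p of 0.0605 to 0.201 in limma. Without the LPS array of the pair 11 genes passed the threshold, beside 2.18% of all probe sets. Without wild type 1 they were 10, beside 0.862%, and without wild type 2 they were 3, beside 0.199%. Rsad2 was among them each time.

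Usp18 and Mx1 came next in that fit, with limma log2 differences of 2.80 and 2.95 and adjusted p of 0.0534 and 0.0679. Cmpk2, Ifit1 and Oasl1 had log2 differences of 3.04, 2.66 and 2.12 (limma adjusted p of 0.114, 0.119 and 0.103). Mx2 had the largest, 3.75, which depends on the floor, with an adjusted p of 0.169 in limma. None of these passed the threshold. The LPS arrays differed most for Mx2, with wild type 2 31.2-fold and wild type 1 7.53-fold above the floor.

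**Figure D3:**
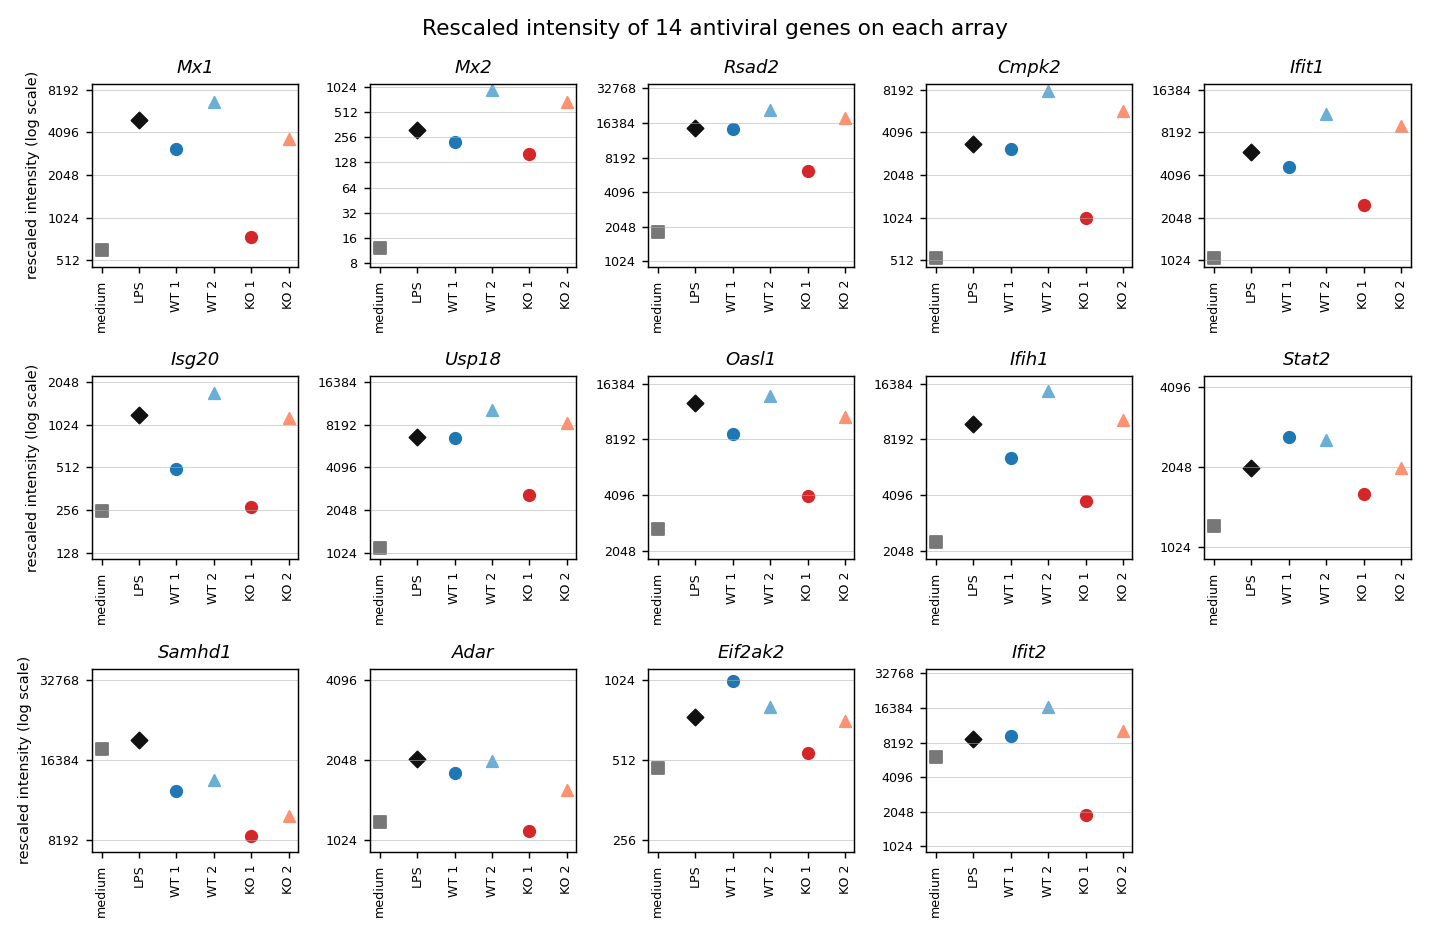
Rescaled intensity on a log axis of 14 of the genes (grey, medium; black, LPS of the wild-type pair; blue, wild type 1 and 2; red and orange, knockout-labelled 1 and 2), 1 point per sample. Medium is lowest in the first 9 panels, from Mx1 to Ifih1, and knockout-labelled 1 is the lowest of the LPS arrays in all 14, as for Mx1, at 749 against 3131 and 6696 in wild type 1 and 2.

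The comparison of knockout-labelled and wild-type samples after LPS asked whether Trib1 deficiency changed these genes. No gene of the 32 passed the threshold (adjusted p of 0.957 to 0.999, limma with Benjamini-Hochberg adjustment), and of all 29078 probe sets 0% did. At an unadjusted p under 0.05 in the same limma fit, 2 genes were lower (6.25%), Stat2 and Samhd1, beside 2.71% of all probe sets. No gene was higher, beside 2.28% of all. The log2 difference, knockout-labelled minus wild type, was below 0 for 31 of 32 genes, with a median of -0.54 and a range of -1.49 to 0.07. It was below 0 for 50.7% of all probe sets, with a median of -0.01. The exception was Trim21, at 0.07, and its second probe set had -0.26.

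Both knockout-labelled samples were below both wild-type samples for 4 genes (12.5%), a share near the 16.3% of all probe sets. These were Stat2, Samhd1, Adar and Eif2ak2. With 2 samples a group, the smallest two-sided p of an exact permutation test is p = 0.333, so none was used. No gene had both knockout-labelled samples at least 2-fold from both wild-type samples.

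Stat2 read 2658 and 2594 in wild type 1 and 2, and 1616 and 2036 in knockout-labelled 1 and 2. Its log2 difference was -0.53 (SE 0.19, 95% interval -0.99 to -0.07, unadjusted p = 0.0301 and adjusted p = 0.957 in limma), and its second probe set had -0.60. Samhd1 read 12439 and 13701 in wild type and 8437 and 10054 in the knockout-labelled samples. Its log2 difference was -0.50 (SE 0.18, 95% interval -0.95 to -0.06, unadjusted p = 0.032 and adjusted p = 0.959 in limma). Of the 4 other Samhd1 probe sets, those above the floor on all arrays had -0.83, -0.70 and -0.53. The remaining one was under the floor in both knockout-labelled samples. It passed the filter only through wild type, so its difference is not read. The groups did not overlap for either gene, and neither passed the adjusted threshold.

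Adar read 1828 and 2022 in wild type and 1104 and 1571 in the knockout-labelled samples, a log2 difference of -0.55 (SE 0.22). Eif2ak2 read 1012 and 809.6 in wild type and 542 and 718 in the knockout-labelled samples, a log2 difference of -0.54 (SE 0.24). The groups did not overlap for either gene, and knockout-labelled 2 was nearer to wild type than knockout-labelled 1 in both. Their unadjusted p were 0.0534 and 0.065, and both adjusted p were 0.999 in limma.

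The largest differences were those of Ifit2 and Mx1, and they came with a wide spread within the knockout-labelled group. Ifit2 read 9366 and 16638 in wild type, 1914 in knockout-labelled 1 and 10297 in knockout-labelled 2. Its log2 difference was -1.49 (SE 0.78, 95% interval -3.42 to 0.43) and that of Mx1 -1.47 (SE 0.77, 95% interval -3.38 to 0.44), each with an adjusted p of 0.999 in limma. For both genes knockout-labelled 2 lay between the wild-type samples, so the groups overlapped. Knockout-labelled 1 was under even the medium array for Ifit2, at 0.310 of it.

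The knockout-labelled samples differed from each other for nearly all of these genes. Knockout-labelled 1 was the lowest of the 4 Trib1-line arrays for 31 of the 32 genes (96.9%), beside 28.1% of all probe sets. It was the lowest of all 5 LPS arrays for the same number, and the LPS array of the wild-type pair was above it for 32 of 32, by a median log2 difference of 1.14. The exception in both counts was Ifitm3, where knockout-labelled 2 was lowest. Wild type 2 was the highest of the 4 arrays for 27 genes, beside 30.7% of all probe sets. Array 2 was above array 1 in both genotypes for 28 genes (87.5%), beside 36.5% of all probe sets.

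Single arrays set against each other show how the genotype difference is made up. Knockout-labelled 1 was below wild type 1 for 32 of 32 genes, by a median log2 difference of -0.73 and a range of -2.29 to -0.00. Knockout-labelled 2 was below wild type 2 for 30 genes, by a median of -0.33 and a range of -0.87 to 0.43. Both held for 30 genes (93.8%), beside 29.0% of all probe sets. Knockout-labelled 2 was above wild type 1 for 27 genes, with a median of 0.31, and wild type 2 was above wild type 1 by a median of 0.64. The spread between the wild-type samples was therefore as large as the genotype difference of -0.54, and the order of knockout-labelled 2 and wild type turned with the wild-type sample chosen.

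**Figure D4:**
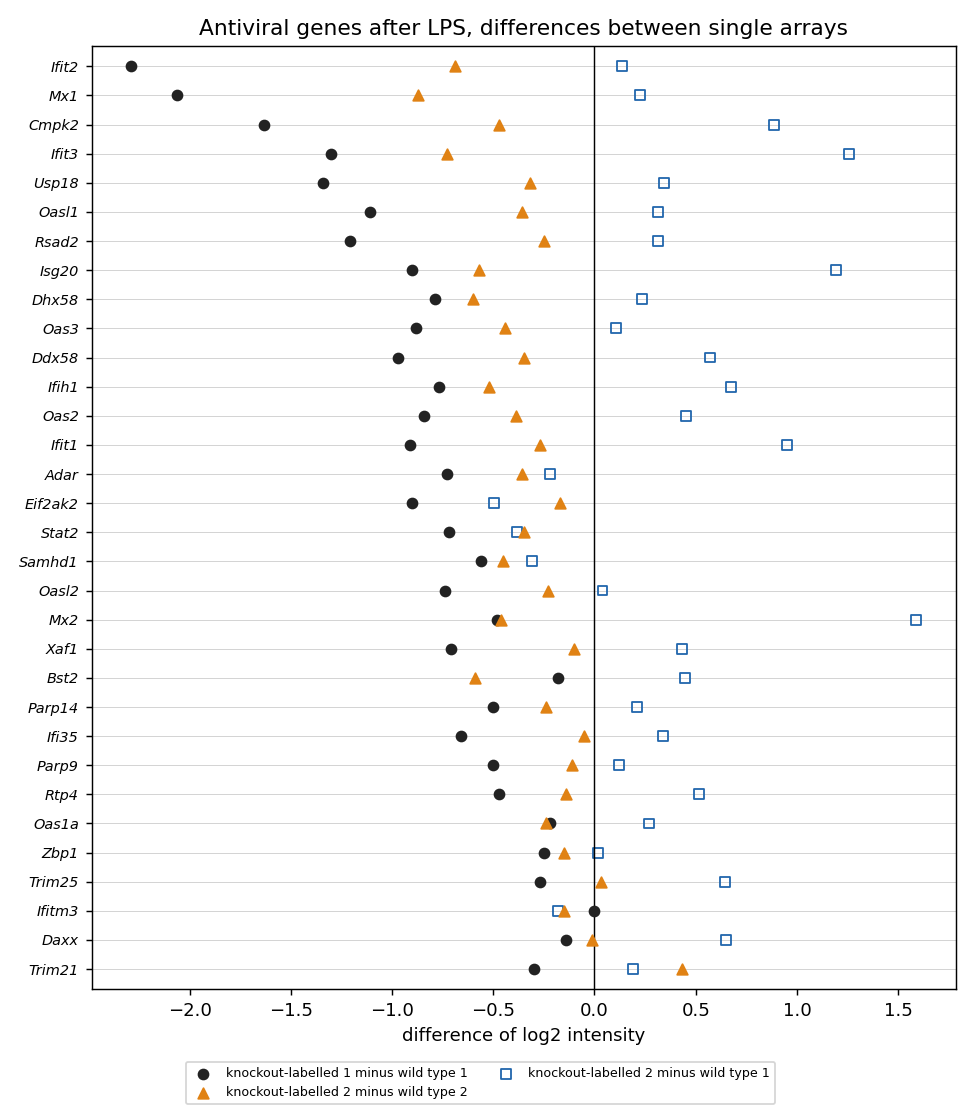
Differences of log2 intensity between single arrays after LPS for the 32 genes, ordered by the genotype difference (black circles, knockout-labelled 1 minus wild type 1; orange triangles, knockout-labelled 2 minus wild type 2; open squares, knockout-labelled 2 minus wild type 1). Circles are at or left of 0 for all 32 genes, triangles left of 0 for 30, and squares right of 0 for 27.

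Leaving out 1 sample at a time showed the same dependence. Without knockout-labelled 1 the median log2 difference was 0.01 and 14 of 32 genes were below 0, beside 47.8% of all probe sets. Without knockout-labelled 2 it was -0.92, and 4 genes were lower at an adjusted p under 0.05 in limma: Ifit2 (-2.71, adjusted p = 0.00319), Mx1 (-2.61, 0.0135), Usp18 (-1.67, 0.0431) and Cmpk2 (-2.30, 0.0475). Of all 26927 probe sets in that fit 0.253% passed, in either direction. That fit rests on 1 knockout-labelled sample, assumed to vary like the wild-type samples. Without wild type 1 and without wild type 2 the medians were -0.79 and -0.18.

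**Figure D5:**
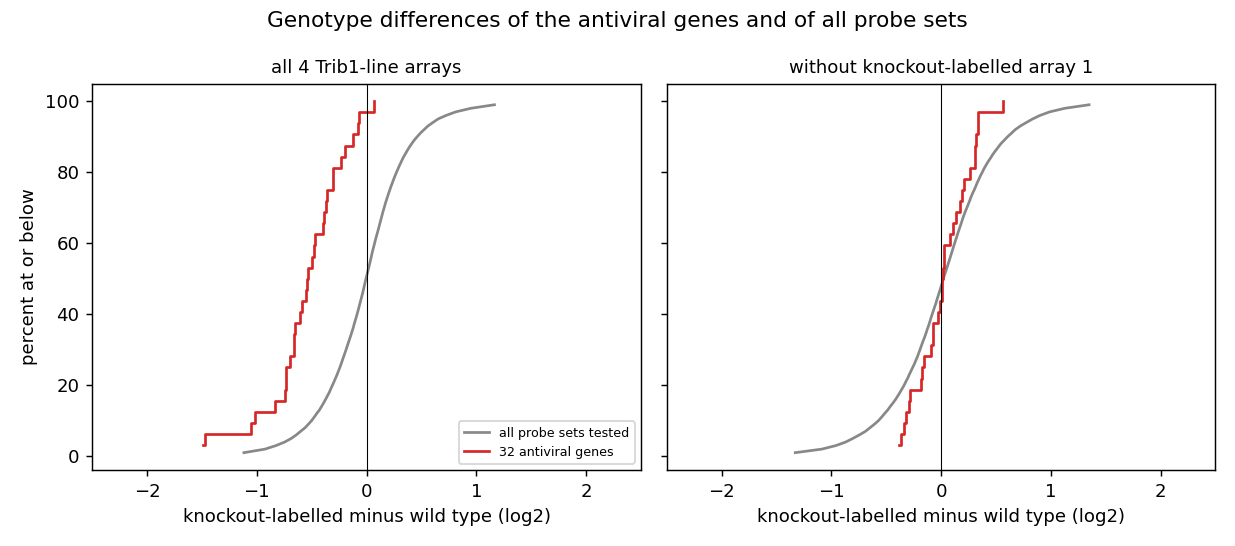
Cumulative share (percent) of the 32 genes (red steps) and of all probe sets tested (grey, 1st to 99th percentile) by log2 difference, knockout-labelled minus wild type, with all 4 Trib1-line arrays (left) and without knockout-labelled 1 (right). The red line lies left of the grey one on the left, with medians of -0.54 and -0.01, and crosses it near 0 on the right, with medians of 0.01 and 0.02.

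Markers of other cells also differed, several of them on both knockout-labelled samples. The summed intensity of 7 neutrophil markers was 16409 in knockout-labelled 1 and 7834 in knockout-labelled 2. It was 1520 and 1523 in wild type 1 and 2, and 859 to 1256 in the pair. Most of it was S100a8 (8853 and 7314 in the knockout-labelled samples, 1251 and 1238 in wild type) and S100a9 (6906 and 206, with both wild-type samples under the floor). The granule genes Mpo and Elane stayed between 64.4 and 118 on all arrays, while the granule genes Camp and Ngp did not. Camp read 219.9 and 66.9 in the knockout-labelled samples and was under the floor on every other array. Ngp read 219.4 in knockout-labelled 1 and 68.7 to 99.9 elsewhere. Of the 7 markers, 4 were above the floor on all arrays. Their part in the low antiviral values was not tested. The sums over 13 T and NK cell markers were 2192 and 2208 in wild type and 681 and 793 in the knockout-labelled samples, and those over 11 mesothelial and stromal markers 7145 and 6105 in wild type and 13937 and 15787 in the knockout-labelled samples. Most of the first sum was Klrk1, without which it was 521.3 and 722.9 in wild type and 450.9 and 529.7 in the knockout-labelled samples. Most of the second was Pdpn, without which it was 1027 and 1256 in wild type, 1406 in knockout-labelled 1 and 3518 in knockout-labelled 2.

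The sums over 6 dendritic cell markers were 3397 and 4744 in wild type and 1672 and 2641 in the knockout-labelled samples, with Itgax as most of each. Without Itgax they were 366.6 and 688.5 in wild type and 427.7 and 408.1 in the knockout-labelled samples, so the groups overlapped. For 7 B cell markers the sums were 2526 and 4528 in wild type and 2355 and 3609 in the knockout-labelled samples. Most of each of these was Blnk and Cd22. In the pair the B cell sums were 5302 with medium and 11124 with LPS, so the pair also differed in these markers. Knockout-labelled 1 was the lowest Trib1-line array for 6 of the 7, beside 28.1% of all probe sets. Over 9 mast cell markers the sums were 925.6 and 1444 in wild type and 684 and 471.1 in the knockout-labelled samples. Most of the sum in knockout-labelled 1 was Hdc, at 373.1. Hdc was under the floor in knockout-labelled 2 and in both wild-type samples. Of the 7 mast cell markers tested, 4 were lower at an unadjusted p under 0.05 in limma, beside 2.71% of all probe sets, and 0 at an adjusted one. Fcer1a, 1 of these 4, was under the floor in both knockout-labelled samples. It passed the filter only through wild type, so its p is not read. The part of these cells in the antiviral values was not tested.

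Markers of plasmacytoid dendritic cells, known producers of type I interferon, summed to 2355 and 4092 in wild type and 1816 and 2699 in the knockout-labelled samples. Of the 6 markers, Bst2 is itself among the antiviral genes and made up most of the sum. Siglech, their defining marker, read 73.9 and 37.1 in wild type, 36.0 in knockout-labelled 1 and, under the floor, 20.5 in knockout-labelled 2. Tcf4 read 393.9 and 525.7 in wild type and 173.1 and 294.4 in the knockout-labelled samples. Ly6d read 83.1 and 105.4 in wild type and was under the floor in both knockout-labelled samples. In the same order Ccr9 read 35.0 and 61.1 against 36.3 and 42.3, and Klk1 188.2 and 107.0 against 163.4 and 171.3. The macrophage marker sums were 77920 and 85258 in wild type and 91724 and 91708 in the knockout-labelled samples. Of these 11 markers 5 were below 0 in the genotype fit, with a median of 0.04. Cd14, 2.96-fold higher with LPS in the pair, read 13871 and 14874 in wild type and 23075 and 19999 in the knockout-labelled samples. Mrc1 read 5430 and 3502 in the pair and 280 to 667 in the Trib1 line, and Icam2 463 and 365 against 65.3 to 103. The part of these markers in the antiviral values was not tested.

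The ligands and receptors upstream of these genes were 14 with a probe set, of which 5 were above the floor on all arrays. In the pair 1 of 11 was at least 4-fold higher with LPS, beside 0.986% of all probe sets. This was Ifng, which read 2.6 with medium, under the floor, and 904 with LPS, so at least 30.2-fold. The median log2 ratio of the 11 was 0.25. The type I receptor chain Ifnar1 read 769 and 1551, 2.02-fold higher. Ifnb1, named after its values were seen, read 54.9 and 51.7 in the pair, 29.0 and 220.3 in wild type 1 and 2, and 52.0 and 67.8 in the knockout-labelled samples. Wild type 2 was thus the highest array for interferon beta, as it was the highest of the Trib1 line for 27 antiviral genes. The rest of the order differed. Wild type 1, under the floor, was lowest for Ifnb1, and knockout-labelled 1, lowest of the line for 31 antiviral genes, read close to the LPS array of the pair. The part of Ifnb1 in the antiviral values was not tested.

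In the genotype fit 0 of 11 ligands and receptors passed the adjusted threshold in limma, and their median log2 difference was -0.03. At an unadjusted p under 0.05 in limma, 1 was lower, beside 2.71% of all probe sets. This was Ifna2, which read 55.8 and 105 in wild type. Both of its knockout-labelled values were under the floor and set to it, so it passed the filter only through wild type. Neither its p nor its difference is read. The receptor chains Ifnar2 and Ifngr1 had log2 differences of 0.47 (SE 0.20) and 0.48 (SE 0.22) and did not pass. Knockout-labelled 1 was the lowest Trib1-line array for 1 of the 11 tested, beside 28.1% of all probe sets.

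Of 22 kinases, adaptors, transcription factors and inhibitors of the pathway, 0 were at least 4-fold higher in the pair, beside 0.986% of all probe sets. The median log2 ratio of the 22 was -0.05. The kinase Jak2 (3.68-fold), its inhibitor Socs3 (2.35-fold) and Irf7, the factor that amplifies interferon alpha (2.25-fold), had the highest ratios. Irf7 read 4860.4 and 7159 in wild type and 1941 and 5622 in the knockout-labelled samples, the order that most antiviral genes had. Knockout-labelled 1 was the lowest Trib1-line array for 6 of the 22, a share near the 28.1% of all probe sets.

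No gene of the 22 passed the adjusted threshold in the genotype fit, and the median log2 difference was -0.09. Sting1, the adaptor of cytoplasmic DNA sensing, read 2146 and 2463 in wild type and 1271 and 1015 in the knockout-labelled samples. Its log2 difference was -1.02 (SE 0.20, unadjusted p = 0.00242 and adjusted p = 0.818 in limma). The phosphatase Ptpn6 had -0.71 (SE 0.21) and the factor Irf8 -0.39 (SE 0.19). The groups did not overlap for Sting1, and knockout-labelled 2 was lowest, unlike for the antiviral genes.

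Another 69 interferon-stimulated genes were listed, such as guanylate-binding proteins, chemokines and schlafens. In the pair 5 of 66 were at least 4-fold higher with LPS, beside 0.986% of all probe sets. The median log2 ratio of the 66 was 0.43. The chemokines Ccl5 and Cxcl11 were 17.4-fold and 5.18-fold higher and the membrane protein Ifitm1 6.11-fold. Ifitm1 was at only 1.45-fold and 0.92-fold of medium in wild type 1 and 2, so its rise was not seen at that size there. Ccl5 read 1340.1 with medium and 23253 with LPS in the pair, 19202 and 20833 in wild type and 19344 and 18651 in the knockout-labelled samples. Ccl5 was thus at a similar level on all 5 LPS arrays, knockout-labelled 1 included.

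In the genotype fit 0 of 67 of these genes passed the adjusted threshold in limma. At an unadjusted p under 0.05 in limma, 5 were lower and 1 was higher, beside 2.71% and 2.28% of all probe sets. The median log2 difference was -0.32, with 56 of 67 below 0, beside 50.7% of all probe sets. Slfn5, a schlafen, read 1900.3 and 2129 in wild type and 1192 and 1200.5 in the knockout-labelled samples (log2 difference -0.75, SE 0.17, limma adjusted p = 0.872). Parp11, an ADP-ribosyltransferase, had -0.85 (SE 0.25), and Trim5 had 1.21 (SE 0.40), with wild type 1 under the floor. Knockout-labelled 1 was the lowest Trib1-line array for 46 of the 67 genes tested, beside 28.1% of all probe sets.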

How the data were processed

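The deposited table gives the linear intensity of each probe set, computed by the authors with MAS5 per the submitters' processing notes; version and scaling target are not given in the sources used here. Per the labels' protocols, TRIzol total RNA was turned into biotinylated cRNA. The deposited arrays had trimmed means of 500 (wild-type pair) and 95.5 to 107 (Trib1 line), so they were rescaled to 1 mean, floored and log2-transformed; ratios involving values near the floor are understated. Probe sets over the floor in 2 or more arrays of a fit were tested with limma 3.58.1 in R 4.3.3 (lmFit, eBayes with trend, two-sided, Benjamini-Hochberg, threshold 0.05; residual degrees of freedom 2), which was tested on simulated data. Of 45101 probe sets, 64 controls were left out; 34945 listed 1 gene symbol, 932 several and 9160 none in an annotation that can be old. Probe sets can cross-hybridise between related genes, as in the Oas and Ifit families.

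The members and lists were chosen with earlier results of these data known. Genes given array by array were those at least 4-fold higher in the pair or called in the LPS fit, the 6 with the smallest genotype p, any with genotypes 2-fold apart, and the 3 highest and lowest ratios; from each pathway list, the 3 smallest p and 3 largest ratios. Alternatives were the deposited scale, quantile normalization, other floors, log2 of the value plus 16, no filter, gene means, 1 probe set per gene, no trend, the label number as a block, added or left-out arrays, and 2-fold and 8-fold rules. Figures used Python 3.11.15, pandas 2.3.3, numpy 2.4.6 and matplotlib 3.10.9.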

Additional observations from a re-analysis of the deposited data

How the results depend on the processing

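The count of 9 genes at least 4-fold higher in the wild-type pair was 14 under a 2-fold and 3 under an 8-fold rule, and 6 to 11 under the other settings. The count of 1 gene (Rsad2) past the adjusted threshold for the wild-type LPS arrays against medium was 0 with quantile normalization, the floor at the 60th percentile, the mean of a gene's probe sets, no filter or no trend, 3 with log2 of the value plus 16, and 3 to 11 with 1 LPS array left out. This fit was not run on the values as deposited, since its arrays lie on different scales. For the genotypes, the 0 genes lower at an adjusted p under 0.05 became 0 to 4 with 1 array left out, and none was higher under any setting. The 2 genes lower at an unadjusted p under 0.05 in limma were 0 on the deposited values or without a trend, 4 with the LPS array of the pair added, and 0 to 25 with 1 array left out. With the label number as a replicate block they were 24, beside 6.21% of all probe sets, and 0 of the 32 passed the adjusted threshold (116 of all 29078 did). The labels do not say that numbers pair samples, and with 2 pairs the correlation of like-numbered deviations, 0.35 across probe sets, does not settle it. Of all 32 genotype differences, 17 went from below to above 0 without knockout-labelled 1, 9 changed sign without wild type 2 and 2 without knockout-labelled 2. Of the leading genes, followed under every setting, 7 changed sign, over these log2 ranges with 1 array left out: Mx2 -1.51 to 0.56, Rsad2 -1.50 to 0.03, Cmpk2 -2.30 to 0.21, Ifit1 -1.52 to 0.34, Isg20 -1.78 to 0.31, Usp18 -1.67 to 0.01 and Ifih1 -1.37 to 0.08. With the mean of a gene's probe sets, the genotype difference of Trim21 went from 0.07 to -0.10 and the log2 ratio of Samhd1 in the pair from 0.12 to -0.17. The cause was not tested. Signal over background limits Mx2, whose ratio in the pair is a bound set by the floor, and the number of arrays limits every other value.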
